A study of Homo sapiens with 12 samples.

Results

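The genes described here encode 8 enzymes that make NADPH in the cytosol or move carbon through the pathway that makes it. They are PGLS, PGD, RPIA, RPE, TKT and TALDO1 of the pentose phosphate pathway, and IDH1 and MTHFD1 outside it. Each was taken as the row of the authors' expression table whose gene symbol equals the member, 8 of 15822 loci, with 1 row per symbol. The samples were 12 RNA sequencing libraries of HepaRG, a liver tumour line of human origin that yields hepatocyte-like cells mixed with biliary-like ones. They form 6 groups of 2 libraries: hCAR-KO cells, in which the constitutive androstane receptor (CAR) was knocked out (KO below), given phenobarbital (PB), the synthetic CAR agonist CITCO or the solvent DMSO, and wild-type (WT) cells given PB, CITCO or DMSO. The sources used here do not give doses, exposure times, the site of the edit or whether the knockout is 1 clone.

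NADPH is the reducing agent of biosynthesis and of detoxification. In liver cells it feeds cytochrome P450 reductase (POR), which hands electrons to the drug-oxidising P450 enzymes of the endoplasmic reticulum, and the reductases that keep glutathione and thioredoxin in reduced form. The oxidative branch of the pentose phosphate pathway makes NADPH while it turns glucose phosphate into a pentose phosphate, and the reversible non-oxidative branch returns surplus pentose to glycolysis. Cytosolic isocitrate oxidation and the folate cycle are further sources. CAR and its relative, the pregnane X receptor, switch on P450 genes when cells meet drugs such as PB, and NRF2, a sensor of oxidative stress, is known to drive several pentose phosphate genes in other cells.

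Library totals were 49.3 to 66.5 times 1e6 reads, as worked out here from what 1 read is worth in the deposited values. Levels are given in CPM, counts per 1e6 reads relative to library sizes that the authors adjusted, so that they compare a gene between libraries and not 1 gene with another. Duplicates are not said to come from separate cultures, so p-values measure only how far these libraries vary, possibly for technical reasons. A difference is called at a Benjamini-Hochberg adjusted p under 0.05 from limma over 15792 loci, and rose or fell is written only of called differences. With 2 libraries a group, groups can easily lie apart by accident. The share of all loci that did so was not counted, so a lack of overlap only describes the libraries. All 8 members passed the filter on low values. NR1I3, which encodes CAR, was at 9.63 to 16.2 CPM in KO and 9.33 to 15.5 CPM in WT libraries, and since the site of the edit is not given its transcript level does not check the genotype. Hepatocyte markers were abundant in every library, and the 5 of 6 listed that were measured summed to 50825 to 54236.5 CPM in KO and 131636 to 148299 CPM in WT libraries. The 3 of 4 biliary markers measured summed to 69.7 to 91.8 CPM in KO and 356 to 449 CPM in WT libraries, and the 3 of 5 mesenchymal markers to 186 to 204 CPM in KO and 72.5 to 83.0 CPM in WT libraries. The biliary markers did not move together. Under each treatment 1 was called higher and 2 lower in KO than in WT cells. Under PB KRT7 was higher (log2 1.04), and SOX9 (-0.91) and KRT19 (-2.47) were lower. The 1 of 3 macrophage markers measured, CD14, was at 3.70 to 18.8 CPM. In bulk RNA, a change in the share of cells of a type cannot be told apart from a change in RNA per cell.

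The promoters of the genes that rose with PB in both genotypes are shown first, because a response in common invites a look at shared sequence. These genes share the PB call only: with CITCO in WT cells PGD, TKT and TALDO1 rose and IDH1 was not called. The windows, from RefSeq on GRCh38.p14, hold 250 bases before and 50 after an annotated start, read 5′ to 3′ on the gene's strand. RefSeq gave 9 windows for the 8 members, with a pair for IDH1, of which the upstream start is printed. RPE, whose level was not called in any comparison with the deposited scaling, is added because its window holds the same letters. Capitals mark the core of the antioxidant response element that NRF2 binds, TGACNNNGC, searched on both strands; the match in the PGD window lies on the other strand.
PGD (chr1:10398814-10399113, plus strand): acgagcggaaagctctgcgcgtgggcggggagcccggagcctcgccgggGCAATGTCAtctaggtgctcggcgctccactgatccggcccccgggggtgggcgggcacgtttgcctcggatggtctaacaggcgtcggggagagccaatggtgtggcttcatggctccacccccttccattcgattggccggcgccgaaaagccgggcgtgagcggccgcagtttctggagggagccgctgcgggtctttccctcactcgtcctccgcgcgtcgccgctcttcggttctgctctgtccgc
IDH1 (chr2:208255022-208255321, minus strand): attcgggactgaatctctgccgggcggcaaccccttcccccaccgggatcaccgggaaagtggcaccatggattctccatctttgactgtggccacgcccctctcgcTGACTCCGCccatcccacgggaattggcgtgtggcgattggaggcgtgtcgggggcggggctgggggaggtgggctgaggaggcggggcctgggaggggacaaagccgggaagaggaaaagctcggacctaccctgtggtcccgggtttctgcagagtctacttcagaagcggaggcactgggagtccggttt
TKT (chr3:53255973-53256272, minus strand): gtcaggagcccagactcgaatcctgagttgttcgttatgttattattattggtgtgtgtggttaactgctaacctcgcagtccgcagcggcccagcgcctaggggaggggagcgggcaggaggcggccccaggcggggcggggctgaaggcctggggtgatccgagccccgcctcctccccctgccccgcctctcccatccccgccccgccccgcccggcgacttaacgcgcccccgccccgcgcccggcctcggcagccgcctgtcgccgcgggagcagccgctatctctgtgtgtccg
TALDO1 (chr11:747214-747513, plus strand): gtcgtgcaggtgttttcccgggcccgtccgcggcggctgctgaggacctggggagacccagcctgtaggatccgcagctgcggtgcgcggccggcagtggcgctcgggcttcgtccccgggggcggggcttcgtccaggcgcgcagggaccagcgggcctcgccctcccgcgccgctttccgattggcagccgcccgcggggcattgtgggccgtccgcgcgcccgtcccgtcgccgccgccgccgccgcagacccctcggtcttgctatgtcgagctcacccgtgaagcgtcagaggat
RPE (chr2:210002388-210002687, plus strand): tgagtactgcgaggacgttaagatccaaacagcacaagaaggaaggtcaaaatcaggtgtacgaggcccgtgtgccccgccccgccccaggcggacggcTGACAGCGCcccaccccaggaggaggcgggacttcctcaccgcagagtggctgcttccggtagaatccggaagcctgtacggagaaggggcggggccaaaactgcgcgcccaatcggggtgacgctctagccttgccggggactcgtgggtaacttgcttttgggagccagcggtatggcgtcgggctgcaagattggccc
The core was found in 3 of the 9 windows, against 13.3% of all 35116 windows. Relative to the annotated start it begins at base -143 in IDH1 (TGACTCCGC), at -201 in PGD (GCAATGTCA, as read on the printed strand) and at -151 in RPE (TGACAGCGC). No match lies in these windows of TKT and TALDO1. Repeats of the half-site AGNTCA that CAR and the pregnane X receptor bind, the direct repeats spaced by 4 and by 3 bases and the everted repeat spaced by 6, were searched likewise on both strands and matched 0 of the 9 windows, against 0.111%, 0.0598% and 0.0427% of all windows. At shares this low, 0 of 9 windows cannot tell these genes from others, and sites beyond 250 bases before the start were not searched. A match is a description of letters and not of a bound site.

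**Figure D1:**
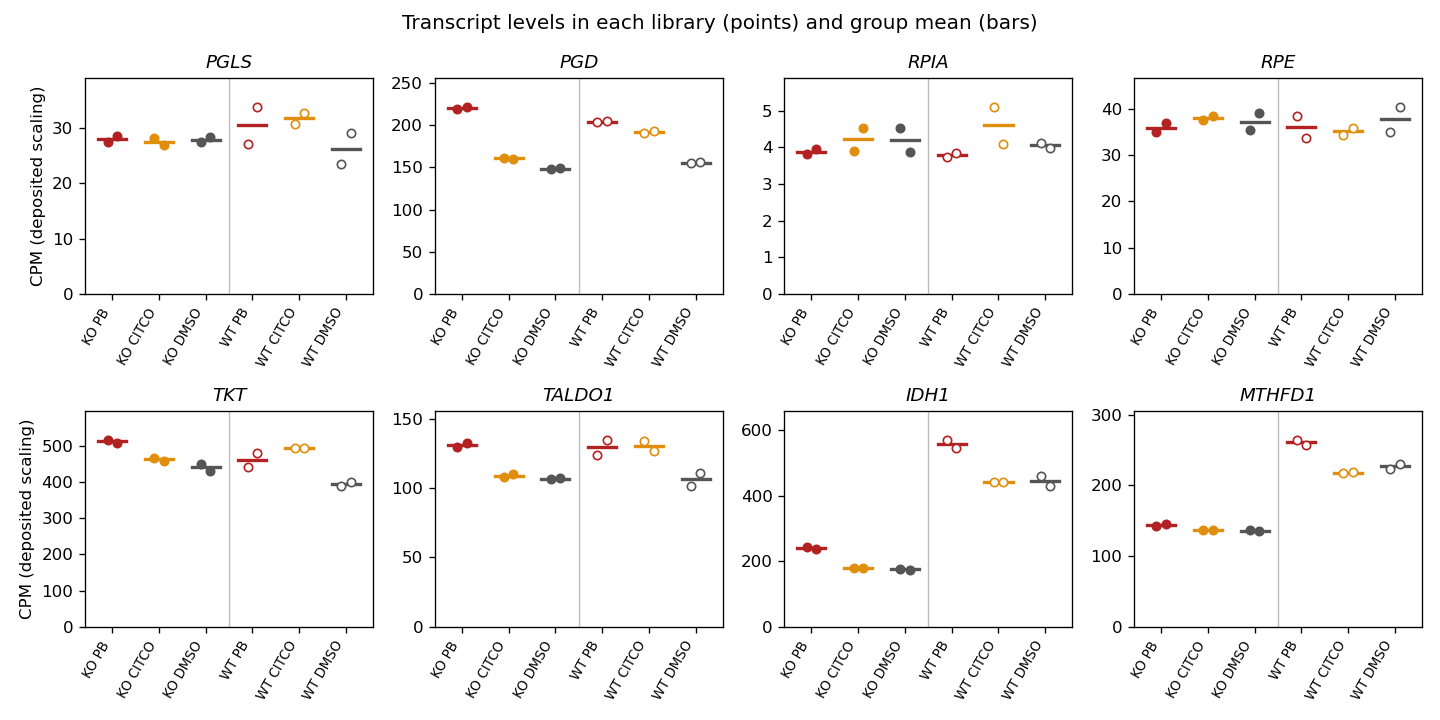
Level of each member in CPM (vertical axes, from 0) in the 2 libraries of each group (points; filled for KO, open for WT) with the group mean (bar). Within KO cells PGD, TKT, TALDO1 and IDH1 stand highest under PB, and IDH1 and MTHFD1 are lower in all KO than in all WT libraries.

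PB raised 4 of the 8 genes in KO cells and 5 in WT cells. PGD, TKT, TALDO1 and IDH1 rose in each genotype, by 16.1 to 48.3% in KO cells and by 16.8 to 31.1% in WT cells, and MTHFD1 rose in WT cells. Over all loci tested, 6.96% were called with PB in KO cells (3.87% rose and 3.09% fell), and 6.42% in WT cells (2.66% rose and 3.76% fell). The median log2 fold change of the members was 0.15 in KO and 0.22 in WT cells, where that of all loci was 0.00059 and -0.0050. No member fell, and none had a negative change at an unadjusted p under 0.05 in limma. The hepatocyte marker sums overlapped between PB and DMSO: 52654 to 53415 CPM under PB, against 52437.5 to 54236.5 CPM under DMSO in KO cells, and 141863 to 148299 CPM under PB, against 143958 to 148293 CPM under DMSO in WT cells. ALB makes up most of these sums; singly, 2 of the 5 hepatocyte markers rose with PB in KO cells, SERPINA1 (0.27) and APOA1 (0.27), and 1 in WT cells, TTR (0.16). CD14 was higher under PB, at 17.6 to 18.8 CPM against 6.13 to 7.23 CPM under DMSO in KO cells and at 7.46 to 7.84 CPM against 3.70 to 4.30 CPM in WT cells, and the biliary sum in KO cells was lower, at 69.7 to 76.2 CPM against 91.0 to 91.8 CPM. The mesenchymal sum in WT cells was lower too, at 72.5 to 72.8 CPM under PB against 78.1 to 79.3 CPM under DMSO. In KO cells the mesenchymal sum was higher, at 198.8 to 199.5 CPM under PB against 186.5 to 197.95 CPM under DMSO. The part of these markers in the results was not tested. The authors' deposited tables hold the same numbers of members under an FDR of 0.05, 4 for KO PB against KO DMSO and 5 for WT PB against WT DMSO.

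PGD, which oxidises phosphogluconate and yields NADPH, had the largest response to PB of the 8 genes in each genotype. It was at 219 and 222 CPM in KO cells under PB, against 148 and 149 CPM in KO cells under DMSO. In WT cells it was at 203 and 205 CPM under PB, against 155 and 157 CPM under DMSO. All PB libraries lay above all DMSO libraries. The log2 fold change was 0.57 in KO cells (SE 0.037, n = 2, limma adjusted p = 5.61e-09), and WT cells had 0.39 (SE 0.037, adjusted p = 1.15e-06). PGLS, which opens the lactone a step before PGD, was at 27.5 and 28.7 CPM under PB and 27.4 and 28.3 CPM under DMSO in KO cells. In WT cells PGLS was at 27.2 and 33.9 CPM under PB, against 23.4 and 29.1 CPM under DMSO, so that the groups overlapped. The WT difference was not called (log2 0.21, 95% interval 0.0071 to 0.42, adjusted p = 0.242). That call depends on a library: the adjusted p was 0.0295 without WT DMSO replicate 2 and 0.0333 without WT PB replicate 1, with log2 fold changes of 0.37 in each case.

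TKT and TALDO1, transketolase and transaldolase, pass short carbon units between sugar phosphates in the non-oxidative branch. TKT was at 517 and 506 CPM in KO cells under PB, against 450.3 and 431 CPM under DMSO. In WT cells it was at 441 and 481 CPM under PB, against 389 and 400.0 CPM under DMSO. TALDO1 was at 129.6 and 132 CPM in KO cells under PB, against 107 and 107 CPM under DMSO, and at 124 and 135 CPM in WT cells under PB, against 102 and 111 CPM under DMSO. Neither gene overlapped between PB and DMSO in either genotype. TKT rose by 0.22 on the log2 scale in both KO cells (SE 0.040, n = 2, limma adjusted p = 0.00200) and WT cells (adjusted p = 0.00160). TALDO1 rose by 0.29 in KO (SE 0.051, adjusted p = 0.00107) and by 0.28 in WT cells (adjusted p = 0.00184). In WT cells these calls are lost in a fit of only the WT PB and WT DMSO libraries (adjusted p = 0.0983 for TKT and 0.103 for TALDO1) and with a constant prior variance (0.0772 and 0.0536), where the KO call of TKT is lost too (0.0824).

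RPIA and RPE, the isomerase and the epimerase that sort ribulose phosphate into its products, were not called in any of the 11 comparisons with the deposited scaling. RPE was called higher in KO than in WT cells under each treatment when libraries were scaled to their totals (log2 0.25 under PB, 0.36 under CITCO and 0.25 under DMSO). With that scaling the median difference of all loci was 0.24 under PB, 0.23 under CITCO and 0.25 under DMSO. RPE stayed between 33.6 and 40.5 CPM over all 12 libraries. With PB its log2 fold change was -0.05 in KO cells (95% interval -0.21 to 0.11) and -0.07 in WT cells (-0.23 to 0.10). RPIA had the fewest reads, 185 to 292 per library, and lay between 3.74 and 5.11 CPM. Its intervals are wider, -0.38 to 0.19 for PB in KO cells and -0.37 to 0.19 in WT cells, so that a fall of RPIA larger than the rise of TKT lies within them. RPE has several processed pseudogenes and the coding copy RPEL1 in GENCODE 29, and its level is uncertain to the extent that reads were divided among them.

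IDH1, the cytosolic and peroxisomal isocitrate dehydrogenase that reduces NADP, was at 243 and 238 CPM in KO cells under PB, against 177 and 175 CPM under DMSO. In WT cells it was at 572 and 545 CPM under PB, against 461 and 429 CPM under DMSO. The PB libraries lay above the DMSO libraries in each genotype, and every KO library lay below every WT library. The log2 fold change with PB was 0.45 in KO cells (SE 0.040, n = 2, limma adjusted p = 4.49e-07), and WT cells had 0.33 (adjusted p = 2.63e-05). MTHFD1, a cytosolic folate enzyme with an NADP-dependent dehydrogenase, was at 143 and 146 CPM in KO cells under PB, against 137 and 135 CPM under DMSO. In WT cells MTHFD1 was at 265 and 256 CPM under PB, against 224 and 229.9 CPM under DMSO. It rose in WT cells (log2 0.20, SE 0.038, adjusted p = 0.00252), a call lost in a fit of only those groups (0.104) and with a constant prior variance (0.0588), and was not called in KO cells (0.09, 95% interval 0.0085 to 0.17, adjusted p = 0.213). IDH1-AS1 overlaps IDH1, and ZBTB25 and antisense transcripts overlap MTHFD1, in GENCODE 29; strandedness of the libraries is not given in the sources used here, so reads of the overlaps cannot be assigned.

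CITCO raised 3 of the 8 genes in WT cells and was not found to change any in KO cells. PGD, TKT and TALDO1 of the pentose phosphate pathway rose in WT cells by 22.8 to 25.3%, where 2.20% of all loci tested were called (1.18% rose and 1.02% fell). IDH1 and MTHFD1 were not called. In KO cells limma called 0 of 8 members, where 0.811% of all loci were called (0.386% rose and 0.424% fell). There 1 member had an unadjusted p under 0.05, PGD, where 1743 of 15792 loci did. The authors' deposited table for KO CITCO against KO DMSO also holds 0 members under an FDR of 0.05. Markers moved as well: the biliary sum in KO cells was at 70.6 to 75.7 CPM under CITCO, against 91.0 to 91.8 CPM under DMSO, with KRT19 called lower. In WT cells the hepatocyte sum was at 131636 to 131672 CPM under CITCO, against 143958 to 148293 CPM under DMSO, with ALB called lower, and CD14 was at 5.14 to 6.65 CPM, against 3.70 to 4.30 CPM, and called higher. The hepatocyte sum in KO cells was lower too, at 50825 to 51471 against 52437.5 to 54236.5 CPM. Mesenchymal sums were higher under CITCO, at 203.84 to 204.45 against 186.5 to 197.95 CPM in KO cells and 82.2 to 83.0 against 78.1 to 79.3 CPM in WT cells. No hepatocyte marker in KO cells and no mesenchymal marker in either genotype was called with CITCO. The part of these markers in the CITCO results was not tested.

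PGD was at 162 and 159.7 CPM in KO cells under CITCO, against 148 and 149 CPM under DMSO, a log2 fold change of 0.11 (95% interval 0.04 to 0.19, limma adjusted p = 0.212). In WT cells PGD was at 191 and 193 CPM under CITCO, against 155 and 157 CPM under DMSO (log2 0.30, SE 0.037, adjusted p = 9.48e-05). The CITCO libraries lay above the DMSO libraries in each genotype.

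TKT was at 467 and 457 CPM in KO cells under CITCO, against 450.3 and 431 CPM under DMSO (log2 0.07, 95% interval -0.02 to 0.15, adjusted p = 0.571). In WT cells TKT was at 494 and 494 CPM under CITCO, against 389 and 400.0 CPM under DMSO (log2 0.33, SE 0.040, adjusted p = 9.90e-05). For TKT too no CITCO library overlapped with DMSO in either genotype, although the difference in KO cells was not called. TALDO1 was at 108 and 109.8 CPM in KO cells under CITCO, against 107 and 107 CPM under DMSO (log2 0.03, 95% interval -0.08 to 0.14). In WT cells TALDO1 was at 134 and 127 CPM under CITCO, against 102 and 111 CPM under DMSO (log2 0.30, SE 0.051, adjusted p = 0.00321). The groups lay apart in WT cells and nearly touched in KO cells. The TALDO1 call in WT cells is lost without WT CITCO replicate 1 (0.101) or WT DMSO replicate 1 (0.0530), in a fit of only those groups (0.101) and with a constant prior variance (0.0919), where TKT is lost as well (0.0519).

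PGLS, IDH1 and MTHFD1 were not called with CITCO in WT cells. PGLS in WT cells was at 30.8 and 32.7 CPM under CITCO, against 23.4 and 29.1 CPM under DMSO, and was not called (log2 0.28, adjusted p = 0.164), but it was without WT DMSO replicate 2 (log2 0.43, adjusted p = 0.0145), where 992 loci in all are called against 348. IDH1 in WT cells was at 443 and 441 CPM under CITCO, inside the range of 461 and 429 CPM under DMSO (log2 -0.01, 95% interval -0.09 to 0.08). MTHFD1 in WT cells was at 217 and 219 CPM under CITCO, just below 224 and 229.9 CPM under DMSO (log2 -0.06, 95% interval -0.14 to 0.02).

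**Figure D2:**
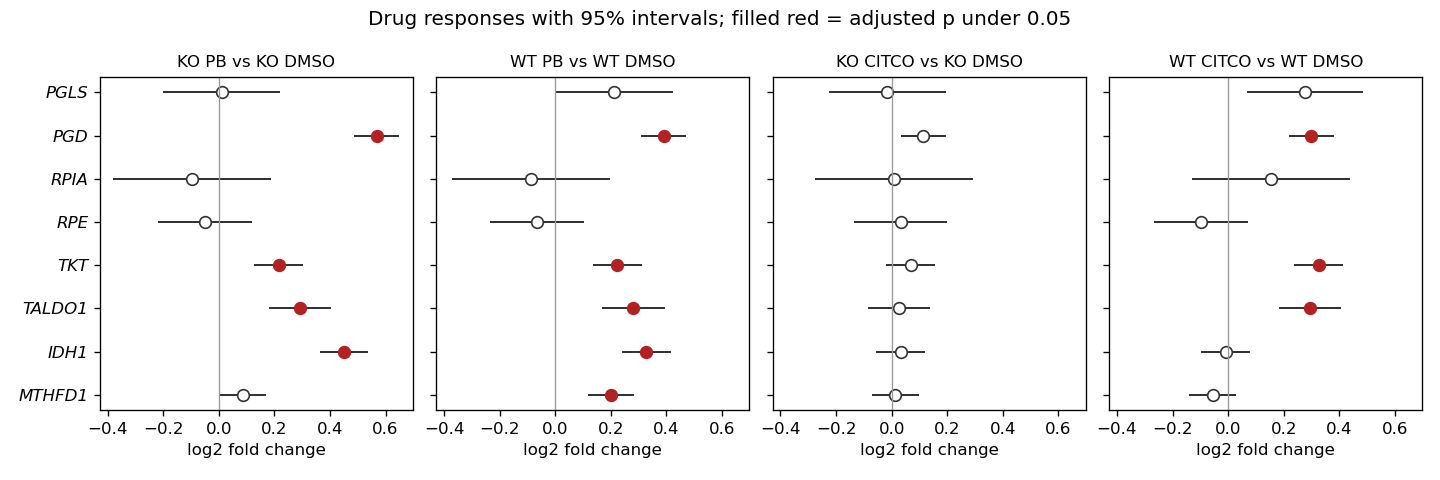
Log2 fold change of each member (horizontal axes) for PB and CITCO against DMSO in KO and WT cells, with 95% intervals from limma as lines and called differences in filled red. PB has 4 called members in KO and 5 in WT cells, and CITCO has 0 in KO and 3 in WT cells.

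Whether a response depended on the genotype was tested as the response in KO minus that in WT cells. For CITCO limma called 0 of the 8 members, where 0.336% of all loci were called (0.108% larger and 0.228% smaller in KO cells). There 4 members had an unadjusted p under 0.05 in limma, where 1996 of 15792 loci did. Each of the 4 had the smaller response in KO cells, and they were the pentose phosphate genes PGLS, PGD, TKT and TALDO1. The difference was -0.26 for TKT (95% interval -0.38 to -0.14, adjusted p = 0.0713), -0.27 for TALDO1 (-0.42 to -0.12, adjusted p = 0.149), -0.19 for PGD (-0.30 to -0.08, adjusted p = 0.167) and -0.29 for PGLS (-0.58 to -0.0016, adjusted p = 0.391). TKT passes in a fit of only the 4 groups concerned (adjusted p = 0.0372) and without WT DMSO replicate 2 (0.0233), WT PB replicate 1 (0.0135) or WT PB replicate 2 (0.0134), and TALDO1 passes without WT DMSO replicate 2 (0.0237), where 491 loci in all are called against 53. For PB limma called 0 of 8, where 1.01% of all loci were called (0.798% with the larger and 0.209% with the smaller response in KO cells). There 1522 of 15792 loci had an unadjusted p under 0.05, among them 2 members. These were PGD (0.18, 95% interval 0.07 to 0.29, adjusted p = 0.162) and IDH1 (0.12, 0.0033 to 0.24, adjusted p = 0.504), each with the larger response in KO cells. For TKT and TALDO1 the interval of the PB difference was -0.13 to 0.11 and -0.14 to 0.16. The authors' deposited tables named KO PB against WT PB and KO CITCO against WT CITCO correlate across loci with these differences of responses (r = 0.993 and 0.994) more than with the comparisons they are named for (r = 0.269 and 0.194); they hold 0 of the 8 members under an FDR of 0.05.

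In WT cells the drugs differed for the 2 genes outside the pentose phosphate pathway. PB gave more IDH1 than CITCO (log2 0.34, SE 0.040, n = 2, limma adjusted p = 3.69e-05) and more MTHFD1 (0.26, SE 0.038, adjusted p = 0.000341), where 6.28% of all loci tested were called (2.65% higher and 3.63% lower with PB). For PGD and TALDO1 the WT difference between the drugs was 0.09 (95% interval 0.01 to 0.17) and -0.01 (-0.12 to 0.09), and neither was called. TKT was at 441 and 481 CPM under PB and at 494 and 494 CPM under CITCO in WT cells (log2 -0.10, adjusted p = 0.162), lower with PB at an adjusted p of 0.0293 when libraries are scaled to their totals and of 0.0194 without WT PB replicate 2. In KO cells PB gave more PGD (0.45, adjusted p = 1.44e-07), IDH1 (0.42, adjusted p = 1.17e-06), TALDO1 (0.27, adjusted p = 0.00327) and TKT (0.15, adjusted p = 0.0397) than CITCO, where 5.48% of all loci were called (3.57% higher and 1.91% lower). Of these, TKT is lost without any KO PB or KO CITCO library (0.126 to 0.303) or either WT CITCO library (0.0675 and 0.0676), with total scaling (0.176) and with a constant prior variance (0.250), and TALDO1 without KO PB replicate 2 (0.0618) and with a constant prior variance (0.0726). Comparisons of PB and of CITCO with DMSO in a genotype share the DMSO libraries, so their fold changes are not independent.

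IDH1 and MTHFD1 were lower in KO than in WT cells under each treatment, while the pentose phosphate genes differed between the genotypes by log2 -0.26 to 0.16. Under DMSO 2 members were lower and 1 higher in KO than in WT cells, where 57.7% of all loci tested were called (29.4% lower and 28.3% higher), so that a call as such was common. Under PB 2 were lower and 2 higher (58.3% of all loci called, 28.9% lower and 29.4% higher), and under CITCO 5 were lower (59.0% called, 29.8% lower and 29.3% higher). Scaling every library to its total in place of the deposited scaling moves the median genotype difference over all loci upward by 0.25 under DMSO and by 0.24 under PB and CITCO, and small differences between the genotypes turn on that choice.

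IDH1 under DMSO was at 177 and 175 CPM in KO cells, against 461 and 429 CPM in WT cells, 2.52-fold lower (log2 -1.34, SE 0.040, n = 2, limma adjusted p = 4.94e-15). It was 2.32-fold lower under PB (log2 -1.21) and 2.45-fold lower under CITCO (-1.29). Scaled to library totals these differences are -1.07 under DMSO, -0.96 under PB and -1.04 under CITCO, all called. MTHFD1 under DMSO was at 137 and 135 CPM in KO cells, against 224 and 229.9 CPM in WT cells, 1.67-fold lower (log2 -0.74, SE 0.038, adjusted p = 1.05e-11). Under PB it was 1.80-fold lower (-0.85) and under CITCO 1.59-fold lower (-0.67), and -0.47, -0.60 and -0.42 under DMSO, PB and CITCO with total scaling, all called. The PB level of IDH1 in KO cells, 243 and 238 CPM, lay below the DMSO level in WT cells. Of the 5 hepatocyte markers 4 were called lower in KO cells under DMSO as well, where 29.4% of all loci tested were. Albumin (ALB) was at log2 -1.55 and HNF4A, a regulator of hepatocyte identity, at -0.87. The part of these markers in the differences of IDH1 and MTHFD1 was not tested.

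TKT was higher in KO than in WT cells under DMSO (log2 0.16, SE 0.040, adjusted p = 0.00235) and under PB (0.15, adjusted p = 0.00351) and lower under CITCO (-0.10, adjusted p = 0.0483). With total scaling all 3 are positive and called, 0.43 under DMSO, 0.40 under PB and 0.16 under CITCO (adjusted p = 0.00241), so the direction under CITCO turns round. The median difference of all loci with that scaling was 0.25 under DMSO, 0.24 under PB and 0.23 under CITCO. Of 15822 loci, 8308, 8167 and 8109 were then called higher in KO cells under DMSO, PB and CITCO. In a limma fit of the deposited scaling with the replicate number as a block, TKT under CITCO misses the threshold (adjusted p = 0.0554). PGD was higher in KO cells under PB (0.11, adjusted p = 0.0172; 0.36 with total scaling) and lower under CITCO (-0.25, adjusted p = 1.06e-05), and its difference under DMSO was not called (-0.07, adjusted p = 0.118). TALDO1 was lower in KO cells under CITCO (-0.26, adjusted p = 0.000300). With total scaling the CITCO differences of PGD and TALDO1 are -0.0027 and -0.0078 and not called, while PGD under DMSO is 0.20 higher in KO cells (adjusted p = 0.000145), TALDO1 is higher in KO cells under DMSO (0.27, adjusted p = 0.000205) and PB (0.27, adjusted p = 0.000213), and PGLS is higher under DMSO (0.35, adjusted p = 0.00491). PGD under PB is lost without WT PB replicate 1 (0.0644) or KO PB replicate 2 (0.107) and with a constant prior variance (0.0692), TKT under PB without WT PB replicate 1 (0.0742), and TKT under CITCO without any of the 4 libraries compared (0.0812 to 0.212) or either KO PB library (0.0646 and 0.0647) and with a constant prior variance (0.182). PGLS was not called under CITCO (-0.20, adjusted p = 0.0870) but passes there, lower in KO cells, in a fit of only those groups (0.00711) or without any WT DMSO or WT PB library (0.0393 to 0.0409), and likewise under PB without WT PB replicate 1 (-0.27, adjusted p = 0.0300), while under DMSO it passes as higher in KO cells without WT DMSO replicate 2 (0.25, adjusted p = 0.0445).

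**Figure D3:**
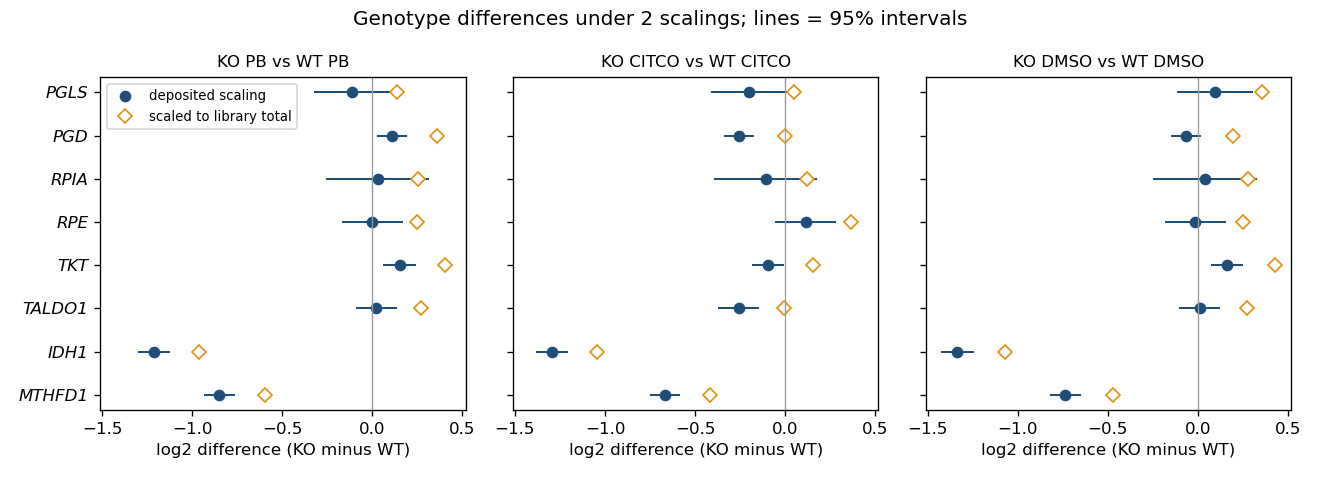
KO minus WT difference of each member on the log2 scale (horizontal axes) under PB, CITCO and DMSO, with the deposited scaling (filled circles, 95% intervals as lines) and with every library scaled to its total (open diamonds). IDH1 and MTHFD1 lie below 0 under each treatment and scaling, and the other members lie near 0 and move upward with total scaling.

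The order of the group levels differed between members. For PGD it ran from KO PB through WT PB, WT CITCO, KO CITCO and WT DMSO to KO DMSO, and no neighbouring groups overlapped. For TKT it ran from KO PB through WT CITCO, KO CITCO, WT PB and KO DMSO to WT DMSO, with overlap of WT PB with KO CITCO and with KO DMSO. TALDO1 had a high set of KO PB, WT CITCO and WT PB, which overlapped, and a low set of KO CITCO, KO DMSO and WT DMSO, of which WT DMSO overlapped with KO CITCO and with KO DMSO. IDH1 and MTHFD1 shared the order WT PB, WT DMSO, WT CITCO, KO PB, KO CITCO, KO DMSO, in which WT DMSO and WT CITCO overlapped for IDH1 and no neighbours did for MTHFD1. All 5 neighbouring pairs overlapped for PGLS and for RPE, and 4 of 5 for RPIA. Per 1000 bases of exon in GENCODE 29, group means ran from 130.0 to 168.7 CPM for TKT, 54.07 to 171.7 for IDH1, 78.97 to 97.37 for TALDO1 and 68.2 to 101.3 for PGD, and lay at 2.05 to 2.488 for RPIA, the lowest of the 8 on this scale.

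Over the 12 libraries and 11612 loci with a mean of at least 5 CPM, the locus whose log2 level followed PGD most closely was POR (Pearson r = 0.979), the reductase that spends NADPH on behalf of the P450 enzymes. The next were CDRT1 (0.965) and PRODH2 (0.961). POR was at 472 and 457 CPM in KO cells under PB, at 239 and 225 CPM under CITCO and at 219 and 213 CPM under DMSO. In WT cells POR was at 377 and 411 CPM under PB, at 304 and 308 CPM under CITCO and at 202 and 215 CPM under DMSO. Its log2 fold change with PB was 1.10 in KO and 0.92 in WT cells, against 0.57 and 0.39 for PGD, and with CITCO 0.10 (adjusted p = 0.412) in KO and 0.55 in WT cells, against 0.11 and 0.30. The CITCO response of POR was smaller in KO cells by a called difference (-0.45, adjusted p = 0.00181). IDH1 was most like GSTA1 (0.997), a glutathione transferase of hepatocytes, MTTP (0.996), which loads lipid onto apolipoprotein B, and NT5DC1 (0.996), and MTHFD1 was most like TCEAL4, DIS3L and ALDH6A1 (0.995 each). For TKT the closest were MAD2L2 (0.935), RAB15 (0.934) and ZNF428 (0.930), and for TALDO1 MRPL57 (0.962), SLC26A1 (0.961) and ATP6V0E2 (0.953). PGLS was closest to CTD-2026K11.4 (0.983), MRPL4 (0.947) and CTD-2369P2.5 (0.945), and the highest values for RPIA (0.813, GAGE2E) and RPE (0.813, BTBD3) were lower. Among the members themselves r was 0.99 for IDH1 with MTHFD1, 0.92 for PGD with TALDO1, 0.78 for TKT with TALDO1 and 0.73 for PGD with TKT. The points are libraries of only 6 groups that share genotype and treatment, so these values describe likeness of pattern and carry no test.

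**Figure D4:**
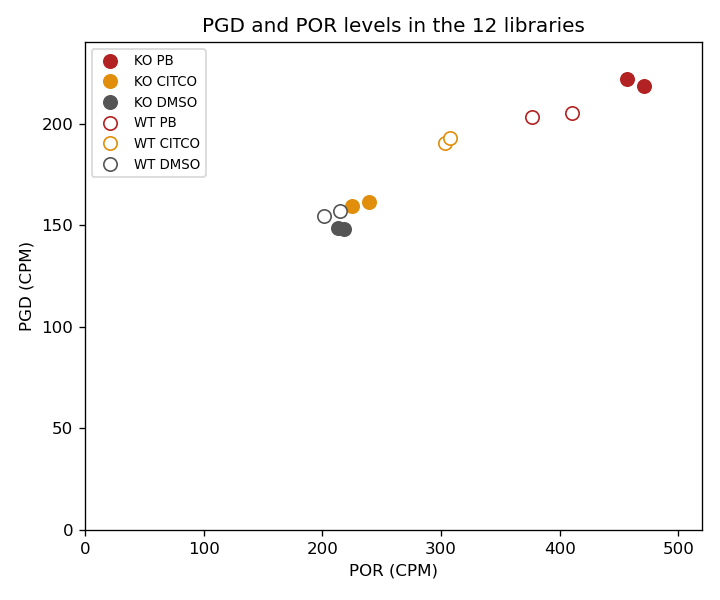
Level of PGD (vertical axis) against that of POR (horizontal axis) in CPM in each of the 12 libraries (filled for KO, open for WT). Both are highest in KO cells under PB, at 219 and 222 CPM for PGD, and the CITCO libraries lie near the DMSO libraries in KO but not in WT cells.

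Among other genes listed for NADPH supply calls went in both directions. Of 12 listed 9 were measured. They include NADK and NADK2, which make NADP, and MTHFD1L, none of which reduces NADP to NADPH. With PB 1 rose and 1 fell in KO cells, and 1 rose and 2 fell in WT cells. The median log2 change was -0.10 in KO and -0.06 in WT cells. ALDH1L1, a cytosolic folate dehydrogenase that yields NADPH, rose in KO cells (0.34) and in WT cells (0.63), and at 167 and 177 CPM in KO cells under PB, against 506 and 522 CPM in WT cells under PB, it was low in KO cells as IDH1 and MTHFD1 were. Its PB response was smaller in KO than in WT cells (difference -0.29, adjusted p = 0.0220), as was its CITCO response (-0.43, adjusted p = 0.00167). IDH2, the mitochondrial counterpart of IDH1, fell with PB in KO cells (-0.30) and in WT cells (-0.19), opposite to IDH1, and H6PD, which makes NADPH inside the endoplasmic reticulum, fell in WT cells with PB (-0.17) and in KO cells with CITCO (-0.22). With CITCO 1 fell in KO cells and 1 rose in WT cells, ALDH1L1 (0.38). In KO against WT cells under DMSO 5 of the 9 were lower and 1 higher. Over all loci tested 57.7% were called there (29.4% lower and 28.3% higher), so that a call as such was common. Among the lower were ALDH1L1 at -1.28, IDH2 at -0.76 and MTHFD2L at -0.31, and the higher was MTHFD1L, the mitochondrial formate maker, at 0.83.

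Of 12 folate cycle partners of MTHFD1, 11 were measured. With PB 1 rose in KO cells, SHMT1 (0.15), which gives methylene folate in the cytosol, and in WT cells SHMT1 rose (0.18) while its mitochondrial counterpart SHMT2 fell (-0.17). With CITCO 1 rose in KO cells, thymidylate synthase (TYMS, 0.23), and limma called 0 in WT cells. There 2 had an unadjusted p under 0.05, as did 2578 of all 15792 loci. Of 12 genes that handle neighbouring sugar phosphates 8 were measured. With PB 1 rose and 2 fell in KO cells, among them RBKS, the ribokinase (0.39), and GPI (-0.13). In WT cells 1 fell, GPI (-0.15), which diverts glucose phosphate into glycolysis. With CITCO 1 fell in KO cells and 1 in WT cells.

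Among enzymes that spend NADPH most calls were rises. Of 16 listed 15 were measured, and with PB 9 rose and 1 fell in KO cells and 9 rose in WT cells (median log2 0.25 and 0.34). The largest of these were CYP2B6 (4.50 in KO and 3.60 in WT cells), CYP3A4 (3.29 and 4.05) and the aldo-keto reductase AKR1B10 (1.35 and 1.05), and FMO5, a flavin monooxygenase, fell in KO cells (-0.86). With CITCO 5 rose and 1 fell in KO cells, and 9 rose and 1 fell in WT cells. In KO cells CYP3A4 (1.22), CYP2B6 (0.78) and AKR1C2 (0.35) rose and FMO5 fell (-0.25), where limma called 0 of the supply genes. In WT cells CYP2B6 (3.55), CYP3A4 (1.78) and AKR1B10 (1.03) rose most. Of 10 listed NRF2 targets outside NADPH supply 9 were measured. With PB 6 rose in KO and 7 in WT cells. Among them were ABCC2, an exporter of conjugates (1.16 and 0.97), SLC7A11, the cystine importer (0.83 and 0.81), and SRXN1, which repairs peroxiredoxins (0.55 and 0.64). GCLC and TXN were not called with PB in either genotype. With CITCO 2 rose in KO cells, ABCC2 (0.28) and SLC7A11 (0.56), and 7 in WT cells, among them SRXN1 (0.59), SLC7A11 (0.47) and FTL (0.34), the light chain of ferritin. The lists were chosen with earlier results of these data known, so their counts are no independent evidence of direction.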

How the data were processed

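Transcript levels were measured by RNA sequencing in 12 libraries of 6 groups. The authors aligned and counted the reads; edgeR 2.12, Cuffdiff 2.1.1, Cufflinks 2.1.1, TopHat2 2.0.10 and Bowtie 1.0.0 are named without role, and GRCh38 and GRCh37 are both named, per the submitters' processing notes. The authors deposited a table of 15822 loci whose values, a normalized signal called CPM in the text, total 0.9 to 1.11 times 1e6 per library, so that library sizes carry normalization factors. They also deposited 7 comparison tables giving a log2 fold change, a p-value and an FDR per locus. In every library 100% of the values are whole multiples of what 1 read is worth (0.0138 to 0.0223 CPM), within 0.05 reads.

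Here log2(CPM + 0.5) was fitted with limma 3.58.1 (R 4.3.3), with a trend of the variance on expression, all 12 libraries in 1 fit of 6 group means and 6 residual degrees of freedom, for loci at 1 CPM or more in 2 or more libraries. Fold changes on this scale understate changes of low genes. P-values were adjusted over all loci of a comparison. edgeR 4.0.16 (quasi-likelihood) and DESeq2 1.42.0 were run on recovered whole reads of the WT libraries as alternatives; a general check of whole reads did not accept the KO columns, which hold few values near 1 read. The code of the fit was run on simulated counts with a fixed dispersion and changed loci in the KO PB group only. Such counts are simpler than these data, so that run does not measure error rates here. All called members are named in each comparison, and of the other lists up to 3 called genes per direction. Members that were not called are not named in every comparison. Listed genes with no row in the table were not analysed here, and results of some listed genes are not reported here. Duplicates differed by more than counting error in each group (chi-square per degree of freedom 4.61 to 12.9). The members and lists were chosen with earlier results of these data known.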

Additional observations from a re-analysis of the deposited data

How the results depend on the processing

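Under the 22 alternative settings run for the WT comparisons and the 20 for the others, no member called for a drug against DMSO changed direction. The number of members called with PB in WT cells was 2 with a constant prior variance and 2 in a fit of only the groups compared, in place of 5, and 5 to 6 when a library was left out. With CITCO in WT cells it was 1 with a constant prior variance in place of 3, and 2 to 4 when a library was left out. With edgeR and DESeq2 these WT counts were 5 and 3, as in limma. With PB in KO cells it stayed at 4 when a library was left out and was 3 with a constant prior variance, and with CITCO in KO cells it was 0 in all 20. For KO against WT under DMSO it was 7 with total scaling in place of 3. With that scaling 10619 of 15822 loci were called there, 8308 of them higher in KO cells, so that a call as such was common. For the difference of the CITCO responses the count was 1 in place of 0 in a fit of only the groups compared and 0 to 2 when a library was left out. For PB against CITCO in KO cells it was 2 with a constant prior variance in place of 4, and 2 to 4 when a library was left out. Values that turned round with total scaling were those of PGD (0.20) and RPE (0.25) in KO against WT under DMSO and TKT (0.16) in KO against WT under CITCO, and a direction is read here only where a setting calls the difference. The cause of these changes was not tested.

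The sample titles do not say whether the replicate numbers pair the libraries, and the values do not settle it. The correlation of same-numbered deviations between groups was -0.175 to 0.433, over 0.1 in 6 of 15 pairs. It was 0.433 for WT PB with WT DMSO and -0.175 for KO CITCO with WT PB. With the replicate number as a block, the count for KO against WT under CITCO was 4 in place of 5, since TKT missed the threshold (adjusted p = 0.0554), and no other call of a member changed. Read depth limits RPIA, with 185 to 292 reads a library; it has no value under the filter of at least 5 CPM. Over all loci the counts moved by more than 1.5 times under some settings: 523 to 1501 against 1099 for PB in KO cells, 242 to 1102 against 1014 for PB in WT cells, 20 to 232 against 128 for CITCO in KO cells, 72 to 992 against 348 for CITCO in WT cells, 25 to 213 against 159 for the difference of PB responses, 6 to 491 against 53 for the difference of CITCO responses, 392 to 1798 against 865 for PB against CITCO in KO cells, 377 to 1251 against 992 for PB against CITCO in WT cells, with edgeR 593 and DESeq2 669 for PB and 138 and 206 for CITCO in WT cells, and 516 and 632 for PB against CITCO.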
